A study of Rattus norvegicus with 62 samples.

Results

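Brainstem RNA of rats treated for 90 days with phenytoin was compared with brainstem RNA of rats treated for the same time with levetiracetam, on the 14 arrays of these groups out of 62 arrays in the study. The arrays were chosen by their sample names, 7 named phenytoin brainstem and 7 named levetiracetam brainstem (spelled Levitiracetam there), and every probe set other than the manufacturer's controls was eligible. The study treated male Wistar rats with phenytoin at 75 mg per kg, levetiracetam at 150 mg per kg or a control solution, each given by gastric tube 2 times a day, and profiled brainstem, hippocampus and frontal cortex. The doses of the drugs differ, no other dose is labelled, and no rat in these groups is labelled as epileptic or as carrying a modified allele. Control brainstem arrays, 7 in number, are given beside the drug groups. On levetiracetam arrays 1 and 2 the labels mention phenytoin as well as levetiracetam. Their sample names say levetiracetam, so they stayed in that group, and results without them are given. The labels do not say whether the regions came from the same rats, or that the rats of a group were handled separately, so a p-value speaks of the spread between arrays, which may be technical.

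Both drugs suppress seizures, by different routes. Phenytoin blocks voltage-gated sodium channels in a use-dependent way, which limits repetitive firing of neurons, and it also induces drug-metabolising enzymes in the liver. Levetiracetam binds Sv2a, a glycoprotein of synaptic vesicles that takes part in transmitter release. The brainstem holds motor, cholinergic and monoamine nuclei and long myelinated tracts.

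Levels are normalized log2 intensities, that is log2(intensity + 16) after quantile normalization, and a difference is phenytoin minus levetiracetam on this scale. Such a difference understates the change of dim genes. The threshold was a Benjamini-Hochberg adjusted p of 0.05 over the 18625 probe sets tested with limma, and a probe set or gene that passed it is called here.

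The tissue carried most markers of its label. Of 10 brainstem markers on the array, 8 were bright enough to be tested, among them Chat of cholinergic neurons, Slc6a4 of serotonin neurons and Hoxa5, and these were higher in brainstem than in both other regions. Slc6a2 of noradrenergic neurons and Slc6a5 of glycinergic neurons were near background (brainstem means 4.65 and 4.64). The 10 markers had summed intensities of 2912 to 3954 on phenytoin arrays and 2947 to 3463 on levetiracetam arrays. Pituitary markers were near background, with sums of 23.7 to 43.2 and 34.8 to 55.0. Phenytoin array 1 stood apart: its mean correlation with the other brainstem arrays was 0.955 against 0.966 to 0.978 for the rest, its log2 ratio of 3' to 5' Gapdh control signal was 0.0047 against 0.302 to 0.402 on the other phenytoin arrays, and its summed intensity of 4 cerebellar markers was 2639 against 253 to 1168 on the other 20 brainstem arrays. Choroid plexus markers varied widely in both groups, from 127 to 7828 and from 141 to 7925. The 3' to 5' ratios of Gapdh and beta-actin, the spike-in signal and the deposited median did not differ between the drugs by more than the spread between arrays (2-sided exact permutation test, adjusted p = 0.969 for each of the 4). Without phenytoin array 1 the adjusted p of the same test was 0.0917 for each measure but the beta-actin ratio (0.886). The mean spike-in signal was then 10.55 with phenytoin, 10.82 with levetiracetam and 10.46 in controls. In the same order the mean Gapdh ratio was 0.363, 0.320 and 0.315 and the deposited median 51.2, 53.1 and 52.1. The part of these measures in the results was not tested. In bulk tissue, fewer cells of a type and less RNA per cell cannot be told apart.

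**Figure D1:**
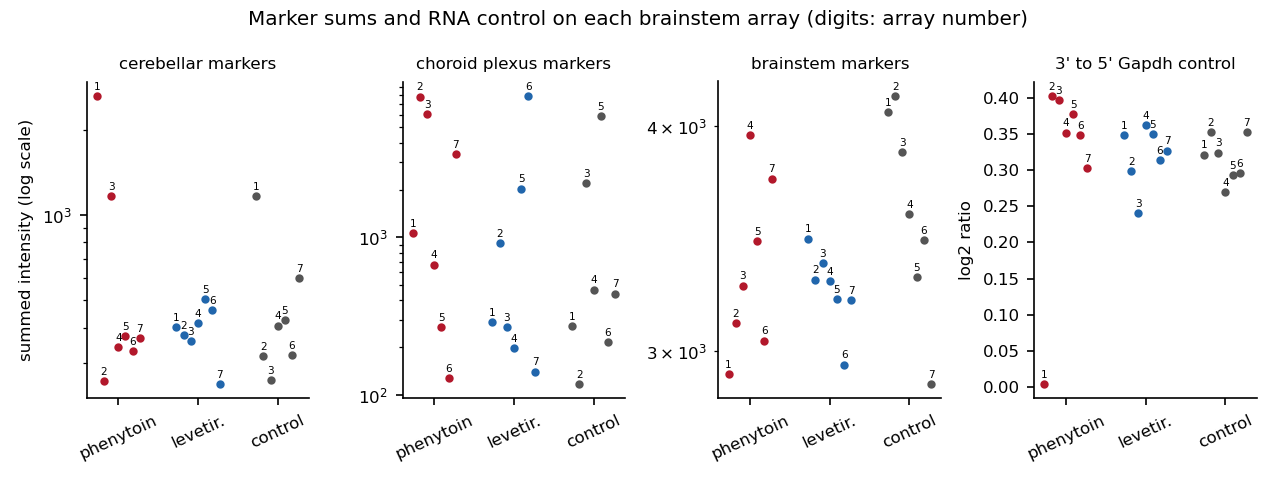
Summed intensity of cerebellar, choroid plexus and brainstem markers (log axes) and log2 ratio of 3' to 5' Gapdh control signal on each brainstem array, by treatment; each point is 1 array and its digit is the array number. Phenytoin array 1 is the highest point for cerebellar markers, at 2639, and the lowest for the Gapdh ratio, at 0.0047.

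Brainstem expression differed between the drugs at many genes, by small amounts. Of the 18625 probe sets, 555 (2.98%) passed the threshold, 227 (1.22%) higher with phenytoin and 328 (1.76%) lower, and 3549 had an unadjusted p under 0.05. The 430 of these 555 with 1 gene symbol represent 421 genes. The median size of the 555 differences was 0.36 on the log2 scale, 92 of the 555 exceeded 0.5, and 5 exceeded a 2-fold difference. The arrays of the drugs did not overlap at 175 probe sets (0.94%), of which 132 were among the 555. Brighter probe sets passed more often: 0.886% of the 3725 dimmest and 6.2% of the 3725 brightest. Of the 555, 499 also passed without phenytoin array 1, where 903 passed in all, and all 555 kept their direction. Without levetiracetam arrays 1 and 2 only 212 passed, 195 of them among the 555. Leaving out any other single array gave between 221 (without phenytoin array 3) and 895 (without phenytoin array 6).

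**Figure D2:**
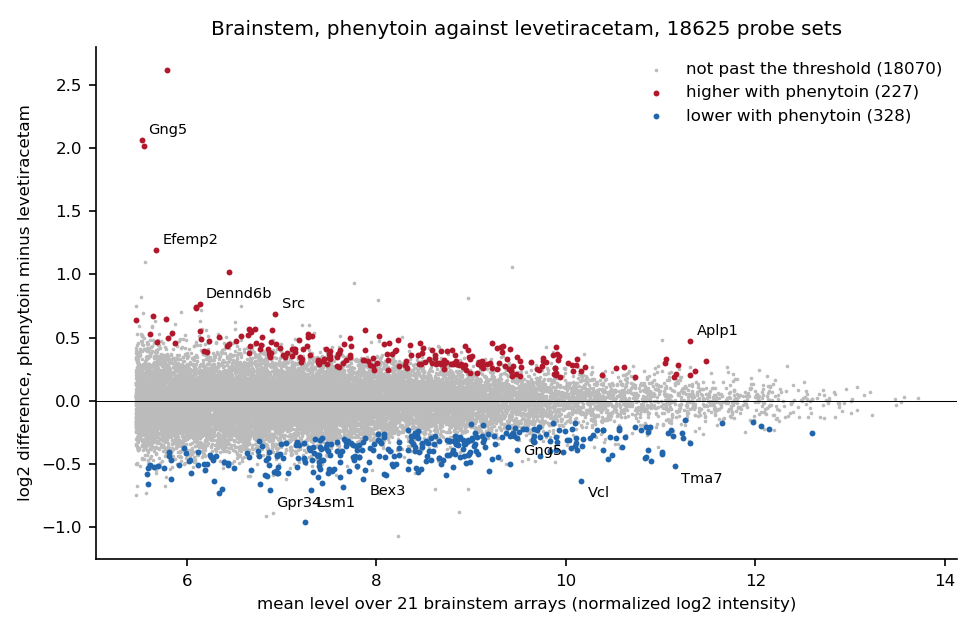
Difference in brainstem (phenytoin minus levetiracetam, log2) against the mean level over 21 brainstem arrays for 18625 probe sets; each point is 1 probe set, coloured where it passed the adjusted p threshold. The 227 higher and 328 lower probe sets spread over the whole range of levels, and the 5 of them with differences over 2-fold have mean levels of 5.52 to 6.45.

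The control arrays lay mostly on the phenytoin side of these genes. The control mean was nearer the phenytoin mean than the levetiracetam mean at 506 of the 555 probe sets (91.2%), against 64.8% of all probe sets tested. It lay between the means of the drugs at 296 of the 555 and at 6197 of all 18625. Choosing probe sets by a wide gap between the drugs itself leaves more room for a mean between them. Among the 14 largest differences in each direction, the control mean was nearer phenytoin for 14 of 14 genes higher with phenytoin and 13 of 14 genes lower with phenytoin. The control arrays entered the fit only through the shared estimate of the spread.

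The genes with the smallest p-values separated the drugs on every array or nearly so. Tma7, a small protein associated with the translation machinery, was lower with phenytoin: its lowest, median and highest levels were 10.83, 10.97 and 11.27 on the phenytoin arrays and 11.36, 11.59 and 11.73 on the levetiracetam arrays. The groups did not overlap, the difference was -0.52 ± 0.07 (SE, limma adjusted p = 0.000338), and the control mean was 10.88 ± 0.10 (SD, n = 7). Aplp1, a neuronal relative of the amyloid precursor protein, was higher with phenytoin, at 11.21, 11.49 and 11.66 on the phenytoin arrays and 10.86, 10.98 and 11.15 on the levetiracetam arrays. Again every phenytoin array was above every levetiracetam array, with a difference of 0.47 ± 0.06 (SE, limma adjusted p = 0.000348) and a control mean of 11.47 ± 0.13 (SD, n = 7). Inka2, an inhibitor of the kinase Pak4, lay at 8.01, 8.27 and 8.41 on the phenytoin arrays and 8.60, 8.81 and 8.92 on the levetiracetam arrays. All phenytoin arrays were below all levetiracetam arrays, and the difference was -0.54 ± 0.08 (SE, limma adjusted p = 0.000988) with controls at 8.39 ± 0.16 (SD, n = 7). Cdk16, a cyclin-dependent kinase abundant in neurons, had 8.54, 8.76 and 8.83 on the phenytoin arrays and 8.14, 8.33 and 8.40 on the levetiracetam arrays. Its groups did not overlap either, and it was higher with phenytoin by 0.40 ± 0.06 (SE, limma adjusted p = 0.00143), with controls at 8.70 ± 0.09 (SD, n = 7). Sypl1, a synaptophysin-like membrane protein, was lower in all phenytoin arrays, with a difference of -0.39 ± 0.06 (SE, limma adjusted p = 0.00143). Chmp5, a part of the ESCRT-III membrane-remodelling machinery, differed by -0.23 ± 0.04 (SE, limma adjusted p = 0.00202), also without overlap. Cxxc5, a zinc finger protein that dampens Wnt signalling, was higher by 0.37 ± 0.06 (SE, limma adjusted p = 0.00181) in every phenytoin array, while its other probe set differed by -0.07 (adjusted p = 0.570). Kpna1, an importin that carries proteins into the nucleus, differed by -0.45 ± 0.07 (SE, limma adjusted p = 0.00202), with overlapping groups, and its other 2 probe sets did not pass (adjusted p = 0.255 and 0.916). Pnn, a nuclear protein of splicing and of cell junctions, differed by -0.54 ± 0.09 (SE, limma adjusted p = 0.00202) without overlap, and its other 3 probe sets did not pass (adjusted p = 0.329 to 0.934).

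With each gene taken at its probe set of smallest p, the 14 largest differences among called genes higher with phenytoin ran from 0.55 to 1.19. A dim Gng5 probe set, described below, differed by 2.06, but the probe set of smallest p for Gng5 was lower with phenytoin. Src, a membrane-bound tyrosine kinase, lay at 7.00, 7.31 and 7.42 on the phenytoin arrays and 6.21, 6.54 and 6.81 on the levetiracetam arrays. No phenytoin array reached down to the levetiracetam range, and the difference was 0.69 ± 0.11 (SE, limma adjusted p = 0.00304), with controls at 7.00 ± 0.26 (SD, n = 7). Its other probe set differed by 0.29 (adjusted p = 0.158). Efemp2, an extracellular protein needed for elastic fibres, differed by 1.19 ± 0.22 (SE, limma adjusted p = 0.00703). Its levels were 5.70, 6.16 and 6.35 on the phenytoin arrays and 4.21, 4.60 and 5.85 on the levetiracetam arrays, and the control mean was 5.97 ± 0.33 (SD, n = 7). The levetiracetam arrays were spread over more than a log2 unit and reached into the phenytoin range, and the second Efemp2 probe set differed by 0.14 (adjusted p = 0.581). Dennd6b, a DENN domain protein of vesicle traffic, lay at 6.31, 6.37 and 6.74 on the phenytoin arrays and 5.27, 5.76 and 5.98 on the levetiracetam arrays. The groups were separate, and the difference was 0.76 ± 0.14 (SE, limma adjusted p = 0.00465) with controls at 6.27 ± 0.30 (SD, n = 7). Phldb1, a pleckstrin homology domain protein of the cell cortex, was higher by 0.56 ± 0.10 (SE, limma adjusted p = 0.00464), although the lowest phenytoin array (7.75) fell under the highest levetiracetam array (7.82). Fzd2, a Wnt receptor, was higher by 0.56 ± 0.12 (SE, limma adjusted p = 0.0123) in every phenytoin array. Wwc1, a scaffold of the Hippo pathway, was higher by 0.75 ± 0.17 (SE, limma adjusted p = 0.0204), with overlapping arrays. Usp30, a mitochondrial deubiquitinase, was higher by 0.67 ± 0.16 (SE, limma adjusted p = 0.0198), while its brighter probe set differed by 0.17 (adjusted p = 0.186). Ganc, a neutral glucosidase, was higher by 0.57 ± 0.12 (SE, limma adjusted p = 0.0137). The remaining 6 of the 14 were Zfp574 (0.74, adjusted p 0.0182), Ptgis, the prostacyclin synthase (0.64, adjusted p 0.0482), F12, coagulation factor XII (0.64, adjusted p 0.0369), Carmil3, a regulator of actin capping (0.56, adjusted p 0.0468), H1f10, a linker histone (0.56, adjusted p 0.0218), and Zbtb18, a transcriptional repressor (0.55, adjusted p 0.0403). The brighter Zbtb18 probe set differed by 0.14 (adjusted p = 0.613), and the other 2 of Zfp574 did not pass either (adjusted p = 0.274 and 0.432). Ptgis and Zbtb18 did not pass without phenytoin array 1 (adjusted p = 0.0674 and 0.0518), and 8 of the 14 passed without levetiracetam arrays 1 and 2. Some calls were also lost without other single arrays. In 14 fits that each left out 1 drug array, Ptgis did not pass in 10, Carmil3 and Zbtb18 in 9 and F12 in 8. H1f10 did not pass in 3 and Wwc1 and Usp30 in 1 each, and the rest passed in all. Most of these genes were dim: the levetiracetam mean of 8 of the 14 lay below 6.11, the upper edge of the 3725 dimmest probe sets. For 4 of these (Efemp2, Usp30, Ptgis and F12) it lay below 5.46, the lowest brainstem mean of a probe set tested, so no fold is given for them.

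The 14 largest differences among called genes lower with phenytoin ran from -0.58 to -0.73. Gpr34, a receptor of microglia, lay at 6.19, 6.75 and 6.92 on the phenytoin arrays and 7.02, 7.41 and 7.71 on the levetiracetam arrays. Every phenytoin array was below every levetiracetam array, the difference was -0.71 ± 0.15 (SE, limma adjusted p = 0.0121) and controls were at 6.58 ± 0.40 (SD, n = 7). Lsm1, a part of the complex that starts messenger RNA decapping, had 6.39, 7.06 and 7.58 on the phenytoin arrays and 7.55, 7.71 and 8.11 on the levetiracetam arrays. Only the highest phenytoin array reached the levetiracetam range. The difference was -0.71 ± 0.13 (SE, limma adjusted p = 0.00541), with controls at 7.13 ± 0.17 (SD, n = 7). Bex3, a neuronal adaptor of the p75 neurotrophin receptor, lay at 7.45, 7.70 and 8.33 on the phenytoin arrays and 8.31, 8.39 and 8.43 on the levetiracetam arrays. The highest phenytoin array (8.33) lay just above the lowest levetiracetam array (8.31) and the other 6 lay below all levetiracetam arrays, with a difference of -0.62 ± 0.12 (SE, limma adjusted p = 0.00979) and controls at 7.45 ± 0.29 (SD, n = 7). The brighter Bex3 probe set differed by 0.10 (adjusted p = 0.386). Tp53bp2, a p53-binding protein that promotes cell death, was lower by -0.59 ± 0.09 (SE, limma adjusted p = 0.00202) without overlap. Vcl, vinculin, which ties adhesion sites to actin, differed by -0.63 ± 0.14 (SE, limma adjusted p = 0.0184) on its brightest probe set, while its other 2 probe sets differed by 0.07 and 0.25 (adjusted p = 0.688 and 0.482). Scd2, a fatty acid desaturase of brain, differed by -0.60 ± 0.12 (SE, limma adjusted p = 0.00865), and its 3 other probe sets by -0.13 to -0.49, none past the threshold (adjusted p = 0.0631 to 0.0972). Tmem33, an endoplasmic reticulum protein, differed by -0.58 ± 0.13 (SE, limma adjusted p = 0.0180), and its other probe set by -0.47 (adjusted p = 0.0244). Snrpd1, a core protein of the spliceosome, was lower by -0.58 ± 0.12 (SE, limma adjusted p = 0.0125) in every phenytoin array. Larp4b, an RNA-binding protein, differed by -0.61 ± 0.12 (SE, limma adjusted p = 0.00703), but its brighter probe set differed by 0.08 (adjusted p = 0.685). The others were C18h18orf54 (-0.73, adjusted p 0.0237), Cav2, a caveolin (-0.68, adjusted p 0.0209), Tmem255a (-0.65, adjusted p 0.0236), Rp2, an activator of a ciliary GTPase (-0.62, adjusted p 0.0265), and Notch3, a receptor of vascular mural cells (-0.58, adjusted p 0.0446), whose phenytoin mean of 5.27 lay below the lowest brainstem mean tested. The 3 other Cav2 probe sets differed by -0.12 to -0.24 and did not pass (adjusted p = 0.339 to 0.463), the first of these values belonging to the brightest, and the other of C18h18orf54 differed by -0.23 (adjusted p = 0.498). All 14 passed without phenytoin array 1, and 9 without levetiracetam arrays 1 and 2. In 14 fits that each left out 1 drug array, Notch3 did not pass in 11 and Rp2 in 5. C18h18orf54 and Tmem255a did not pass in 4 and Cav2 in 2, and the rest passed in all.

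**Figure D3:**
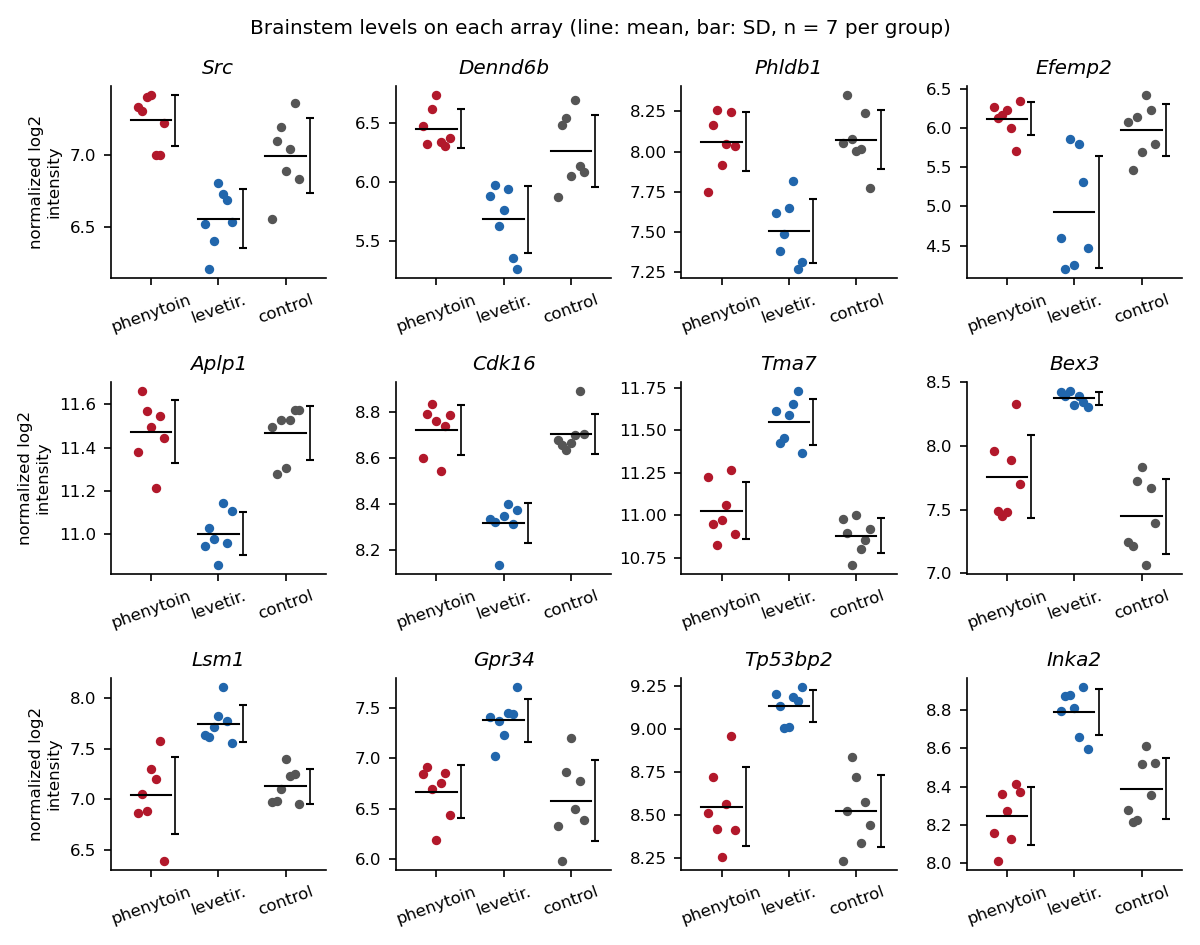
Normalized log2 intensity of 12 genes on each brainstem array by treatment; points are arrays, lines the group means and bars the SD (n = 7 per group), and each panel has its own axis, which does not start at 0. Phenytoin and levetiracetam arrays are separate for Src, Dennd6b, Aplp1, Cdk16, Tma7, Gpr34, Tp53bp2 and Inka2, and for most of the 12 genes the control points lie nearer the phenytoin points.

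Of the 8 probe sets tested with differences over 2-fold, 5 were called. These 5 were all higher with phenytoin, and apart from Efemp2 they were picked out after their values were seen. The 3 that did not pass were one of Ttr, a choroid plexus gene (1.06, adjusted p = 0.606), and unnamed 1390722_at (-1.07, adjusted p = 0.249) and 1395498_at (1.10, adjusted p = 0.0906). A dim probe set of Gng5, a G protein gamma subunit, differed by 2.06 ± 0.54 (SE, limma adjusted p = 0.0384). Phenytoin arrays 1 to 7 read 10.61, 8.58, 7.05, 6.51, 4.98, 5.60 and 5.17, while the levetiracetam arrays lay between 4.35 and 5.28, so 4 phenytoin arrays were clearly above and the other 3 lay within or just above that range. The brightest Gng5 probe set went the other way, by -0.30 ± 0.06 (SE, limma adjusted p = 0.0130), and the third by -0.21 (adjusted p = 0.429). Among called genes with several probe sets this was the only gene called in opposite directions. The largest difference of all, 2.62 ± 0.60 (SE, limma adjusted p = 0.0187), belonged to probe set 1392439_at, which carries no gene symbol here. Its phenytoin arrays read 11.17, 9.57, 7.95, 7.31, 5.65, 6.36 and 5.04 and its levetiracetam arrays 4.09 to 5.92, so the same 4 phenytoin arrays were highest. Unnamed 1396454_at had the same 4 arrays highest and differed by 2.02 (adjusted p = 0.0482). The remaining probe set, also unnamed, differed by 1.02 (adjusted p = 0.0482). Control arrays of the Gng5 probe set lay between 4.41 and 4.99 and those of 1392439_at between 4.12 and 5.62. The levetiracetam and control means were 4.87 and 4.77 for Gng5, 4.96 and 4.83 for 1392439_at and 5.00 and 4.62 for 1396454_at, all below 5.46, the lowest brainstem mean tested. These 3 probe sets therefore passed the filter on dim values only through the phenytoin arrays on which they were high, and their calls support nothing further. Without phenytoin array 1 the differences of the dim Gng5 probe set and 1392439_at were 1.45 and 2.02 (adjusted p = 0.0247 and 0.0151). Without levetiracetam arrays 1 and 2 they were 2.10 and 2.89 (adjusted p = 0.0888 and 0.0394). In hippocampus they were -0.12 and -0.14 (adjusted p = 0.912 and 0.900). The control hippocampus means of these and 1396454_at were 6.03, 6.13 and 6.48. The drug group means there were 4.35 to 4.81, so high values were not particular to phenytoin brainstem. Efemp2 differed by 1.16 without phenytoin array 1 (adjusted p = 0.00768) and by 0.98 without levetiracetam arrays 1 and 2 (adjusted p = 0.0404). The other 2 did not pass without levetiracetam arrays 1 and 2 (1396454_at, 2.17, adjusted p = 0.0872; the last, 0.93, adjusted p = 0.138), and the last did not pass without phenytoin array 1 (0.98, adjusted p = 0.0559).

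Other probe sets of the called genes moved in the same direction more often than not but seldom passed. For 187 of the 421 genes a further probe set was tested, 304 in all, and 68.4% of these had the sign of the called one, against 56.3% for the 3789 further probe sets of all genes. Of the 304, 8 (2.63%) passed in the same direction and 1 in the opposite direction. The called probe set of a gene was that of smallest p, so the further ones had larger p by choice. Their share is therefore not comparable with the 2.98% of all probe sets that passed in either direction.

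The genes nearest to the drugs' own targets showed no difference past the threshold. Of the 8 sodium channel subunits measured, 0 passed (0 also at an unadjusted p under 0.05), with a median difference of -0.00074. Scn1a, a pore-forming subunit of fast-spiking neurons, lay at 10.24, 10.45 and 10.69 on the phenytoin arrays and 10.28, 10.52 and 10.56 on the levetiracetam arrays. The groups overlapped, and the difference was -0.03 with a 95% interval of -0.15 to 0.10 (limma adjusted p = 0.849). Scn2a differed by 0.18 (interval -0.0014 to 0.37) and Scn3a by 0.28 (interval -0.14 to 0.70). The beta subunits, which set the gating and placement of the channel, differed by 0.03 for Scn2b (interval -0.12 to 0.17), -0.11 for Scn3b (interval -0.37 to 0.15) and -0.03 for Scn4b (interval -0.18 to 0.12). Sv2a, the binding site of levetiracetam, lay at 9.15, 9.41 and 9.62 on the phenytoin arrays and 9.28, 9.37 and 9.51 on the levetiracetam arrays, with controls at 9.29 ± 0.17 (SD, n = 7). These ranges overlapped, and the difference was 0.03 with an interval of -0.12 to 0.19 (limma adjusted p = 0.860). Its relative Sv2b differed by 0.27 (interval 0.01 to 0.54, limma adjusted p = 0.245). These intervals leave room for differences of the median size seen among the called probe sets only for Scn2a, Scn3a, Scn3b and Sv2b among the genes just named.

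Lists of genes by pathway and cell type were described on the brightest probe set of each gene. Over all 10502 genes, 353 (3.36%) passed, 168 (1.6%) higher and 185 (1.76%) lower with phenytoin, and the median difference was 0.01. Of 38 lists, 16 had at least 1 gene past the threshold, with 44 genes in all, 15 higher and 29 lower. The largest number in a list was 7. Calls near the threshold depended on single arrays. In 14 fits that each left out 1 drug array, Gstm1 did not pass in 12. Fos, Grm4, Abcc1, Ndufb11 and Pdk2 did not pass in 10 each, while Msmo1, Scap, Srebf1, U2af2 and Srsf2 passed in all. Without phenytoin array 1, 312 of the 10502 genes were higher and 258 lower. Without levetiracetam arrays 1 and 2, 58 were higher and 69 lower, and the lists with calls were then cholesterol synthesis (2 higher, 3 lower), splicing (1 higher, 2 lower), small GTPases (2 lower), adhesion (1 higher), and G protein, microglia and oxidative phosphorylation genes (1 lower each).

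Of 23 cholesterol synthesis genes, 5 passed, 3 lower and 2 higher with phenytoin, with a list median of -0.15. The sterol enzymes Msmo1 (-0.29 ± 0.05 SE, adjusted p = 0.00215) and Sc5d (-0.46 ± 0.11 SE, adjusted p = 0.0188) and the thiolase Acat2 (-0.31 ± 0.07 SE, adjusted p = 0.0132) were lower with phenytoin. Srebf1, a transcription factor of lipid synthesis (0.42 ± 0.09 SE, adjusted p = 0.0117), and Scap, the escort that carries such factors out of the endoplasmic reticulum (0.36 ± 0.07 SE, adjusted p = 0.00826), were higher. Further probe sets of Srebf1 (0.09, adjusted p = 0.625) and Scap (0.24, adjusted p = 0.439) did not pass. Msmo1 means were 10.41, 10.70 and 10.49 in phenytoin, levetiracetam and control arrays, and Scap means were 8.94, 8.58 and 8.96. For both, phenytoin and control lay on the same side of levetiracetam. The other enzymes measured did not pass, among them Fdps (-0.18), Fdft1 (-0.15), Cyp51 (-0.10) and Dhcr7 (0.05). Each of the 5 passed without phenytoin array 1 and also without levetiracetam arrays 1 and 2.

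Adhesion and Src signalling genes passed in both directions, 4 higher and 2 lower of 29, with a median of -0.01. Besides Src and Vcl these were Itga6, an integrin of laminin contact (-0.42 ± 0.09 SE, adjusted p = 0.0130), Limk1, a kinase that controls actin turnover (0.49 ± 0.12 SE, adjusted p = 0.0209), Bcar1, a docking protein phosphorylated by Src (0.32 ± 0.09 SE, adjusted p = 0.0424), and Zyx, zyxin of focal adhesions (0.30 ± 0.08 SE, adjusted p = 0.0482). Further Itga6 probe sets differed by -0.24 and -0.13 (adjusted p = 0.357 and 0.577). Limk1 means were 8.09, 7.60 and 7.48 in phenytoin, levetiracetam and control arrays, so that the control was nearer levetiracetam here. Zyx did not pass (adjusted p = 0.05003) without phenytoin array 1, and of the list only 1 gene passed without levetiracetam arrays 1 and 2. No extracellular matrix gene passed on its brightest probe set (0 of 26, median 0.11).

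Of the 38 lists, splicing and RNA helicase genes had the most calls, 1 higher and 6 lower of 43, with a median of -0.01. Lower with phenytoin were Lsm1, Srsf10, a splicing repressor (-0.54 ± 0.12 SE, adjusted p = 0.0160), U2af2, which recognises the 3' splice site (-0.32 ± 0.07 SE, adjusted p = 0.0147), Tra2a (-0.31 ± 0.08 SE, adjusted p = 0.0296), and the RNA-binding proteins Hnrnpa2b1 (-0.29 ± 0.08 SE, adjusted p = 0.0482) and Hnrnpa3 (-0.17 ± 0.05 SE, adjusted p = 0.0450). Srsf2, an exon-recognition factor, was higher (0.34 ± 0.08 SE, adjusted p = 0.0158). Lsm1 acts in messenger RNA decay rather than splicing. Snrpd1, counted here by its brighter probe set, differed by -0.37 (adjusted p = 0.0718). Further U2af2 probe sets, both dimmer, differed by 0.37 and -0.07 (adjusted p = 0.342 and 0.849). Those of Srsf10 (-0.24), Tra2a (-0.10) and Srsf2 (0.10) did not pass either (adjusted p = 0.422, 0.799 and 0.546). Further Hnrnpa2b1 probe sets differed by 0.14, 0.18 and -0.15 (adjusted p = 0.51, 0.26 and 0.54).

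Among cell type lists, microglial genes had calls in both directions. Of 20 measured, Gpr34 and Aif1 (-0.35 ± 0.09 SE, adjusted p = 0.0422), a calcium-binding protein of microglia, were lower with phenytoin and C1qc, a complement chain (0.51 ± 0.13 SE, adjusted p = 0.0278), was higher, with a list median of -0.15. Other microglial genes did not pass, such as Cx3cr1 (-0.15), P2ry12 (-0.15), Csf1r (-0.12) and C1qa (0.08). On its brightest probe set, no gene passed among 25 oligodendrocyte and myelin genes (median 0.03), 20 astrocyte genes (median -0.01), 24 endothelial and mural genes (median 0.09) or 12 cholinergic and monoamine genes (median 0.15). Cerebellar genes had a median of 0.25, with 0 of 13 called, and 0.03 without phenytoin array 1, whose cerebellar marker sum was the highest. Hindbrain transcription factors had 0 of 11 called, 0 of 11 above 0 and a median of -0.23, and -0.23 without phenytoin array 1, as with Hoxa5 (-0.25) and Hoxb2 (-0.23). The part of the marker sums in these medians was not tested.

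Neuronal signalling lists held few calls. Of 18 GABA genes, only Gabrb2, a receptor subunit, passed, higher with phenytoin (0.26 ± 0.06 SE, adjusted p = 0.0276). Of 28 glutamate genes, Grin1, the obligatory NMDA receptor subunit (0.30 ± 0.08 SE, adjusted p = 0.0328), and Grm4, a presynaptic metabotropic receptor (0.46 ± 0.12 SE, adjusted p = 0.0408), were higher. Dimmer probe sets of Gabrb2 (0.12, adjusted p = 0.711) and Grin1 (0.35, adjusted p = 0.333) did not pass. Cacna2d3, a calcium channel subunit, was lower (-0.28 ± 0.07 SE, adjusted p = 0.0235), 1 of 14 in its list. Of 23 G protein genes, 3 gamma subunits were lower: Gng5, Gng7 (-0.41 ± 0.11 SE, adjusted p = 0.0389) and Gng10 (-0.25 ± 0.06 SE, adjusted p = 0.0229). Of 26 vesicle release genes 0 passed, with a median of 0.11. Without phenytoin array 1, 5 of them passed, all higher with phenytoin, among them Vamp2 at 0.35 (adjusted p = 0.00780) and Syn1 at 0.34 (adjusted p = 0.0143). No potassium or HCN channel gene passed (0 of 26), and of 18 cytoskeletal genes Nefm, the medium neurofilament (-0.26 ± 0.07 SE, adjusted p = 0.0341), and Dpysl2, a regulator of axon growth (-0.22 ± 0.05 SE, adjusted p = 0.0206), were lower.

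Metabolic and stress genes made up the rest. Among 64 oxidative phosphorylation genes, Ndufb8 (-0.43 ± 0.10 SE, adjusted p = 0.0213), Ndufv2 (-0.26 ± 0.06 SE, adjusted p = 0.0160) and Uqcrh (-0.17 ± 0.04 SE, adjusted p = 0.0198) were lower and Ndufb11 (0.26 ± 0.07 SE, adjusted p = 0.0482) was higher. Uqcrh belongs to complex III of the respiratory chain and the others to complex I. Hk1, the brain hexokinase (0.26 ± 0.07 SE, adjusted p = 0.0434), and Pdk2, which inhibits pyruvate dehydrogenase (0.25 ± 0.07 SE, adjusted p = 0.0480), were higher, 2 of 21 glycolysis genes. A dimmer Pdk2 probe set differed by -0.15 (adjusted p = 0.640). Phenytoin is known to induce hepatic drug-metabolising enzymes. In brainstem, of 19 such genes, Gsta1 (-0.31 ± 0.08 SE, adjusted p = 0.0408) and Gstm1 (-0.26 ± 0.07 SE, adjusted p = 0.0454), glutathione transferases, were lower than with levetiracetam, and Abcc1, an efflux pump (0.43 ± 0.12 SE, adjusted p = 0.0444), was higher. Gstm1 belongs to a family of genes similar in sequence, which its probes could share, and it did not pass without phenytoin array 1 (adjusted p = 0.0606). Hspa5, the chaperone of the endoplasmic reticulum (-0.28 ± 0.06 SE, adjusted p = 0.0160), was lower, 1 of 35 heat shock and unfolded protein genes. Fos, an immediate early gene (-0.46 ± 0.12 SE, adjusted p = 0.0392), was lower, 1 of 14 activity-induced genes, and Npas2, a clock transcription factor (-0.37 ± 0.10 SE, adjusted p = 0.0393), was lower, 1 of 17 clock genes. Rab5a (-0.29 ± 0.06 SE, adjusted p = 0.0137) and Rab21 (-0.27 ± 0.07 SE, adjusted p = 0.0350), GTPases of early endosomes, were lower, 2 of 42 small GTPases. A dimmer Rab5a probe set differed by -0.20 (adjusted p = 0.177). Ribosomal protein (0 of 39), proteasome (0 of 35), interferon-responsive (0 of 18), folate (0 of 14) and thyroid hormone genes (0 of 10) had none.

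**Figure D4:**
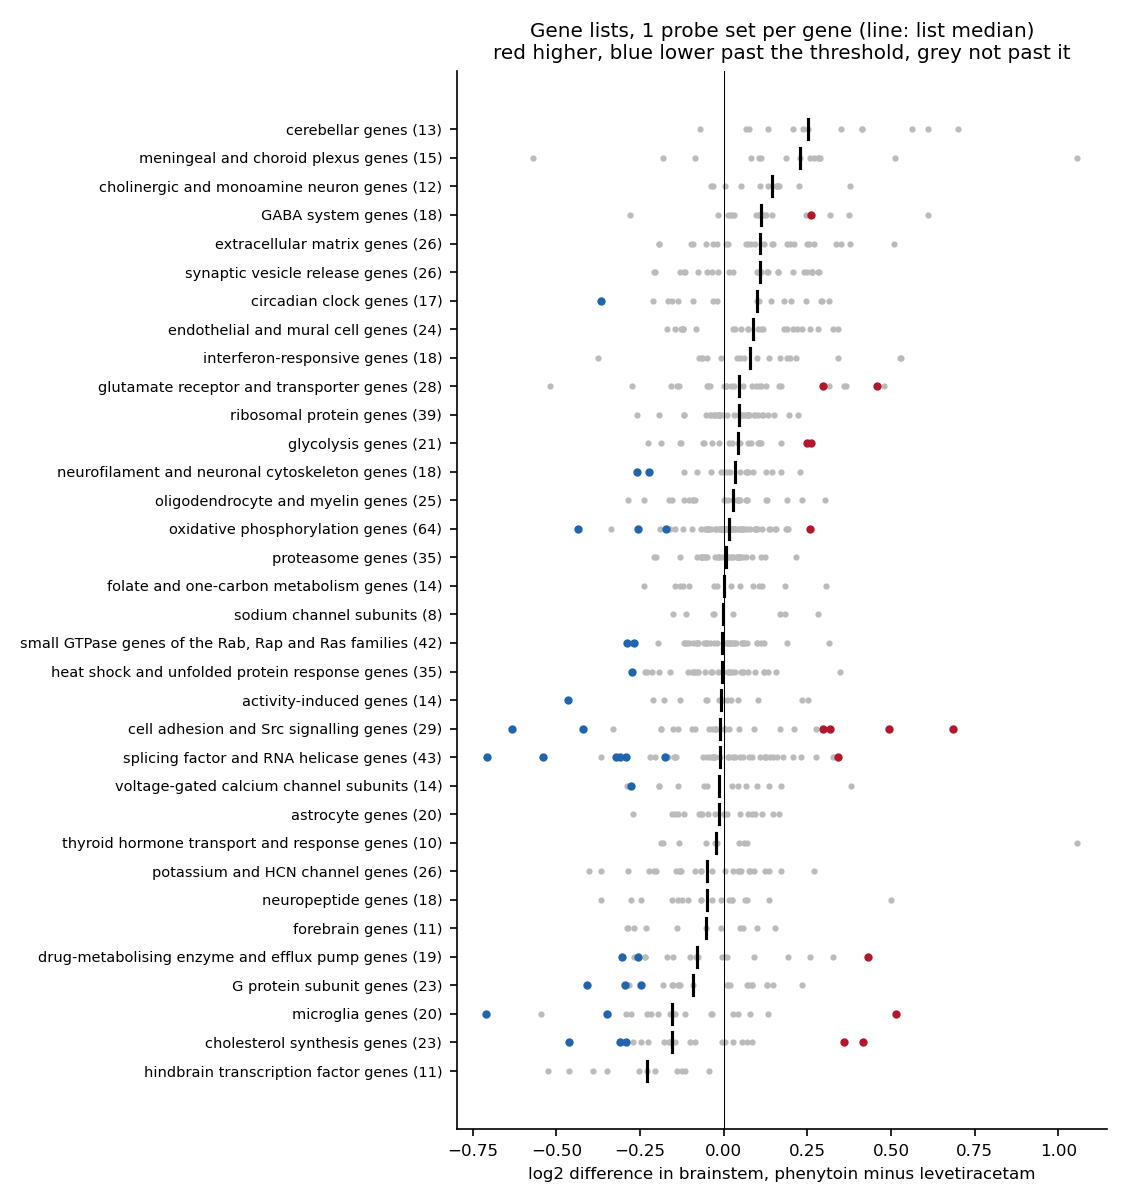
Brainstem difference (phenytoin minus levetiracetam, log2) of the members of 34 gene lists with at least 5 genes measured, 1 point per gene, the number measured in brackets; black lines are list medians, red and blue points passed the threshold. The coloured points are few in each list, 7 at most, and the list medians run from -0.23 for hindbrain transcription factor genes to 0.25 for cerebellar genes.

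The brainstem differences were set against the same drug contrast in the other regions, which share no array with it. Sample titles share a naming scheme in brainstem and hippocampus and follow another in frontal cortex, and the labels do not say why. The quality measures above were taken on brainstem arrays only. The part of either in the comparison of regions was not tested. In hippocampus 524 of the 555 brainstem probe sets (94.4%) had the same sign, against 67.3% of all probe sets tested. Of the 555, 298 also passed in hippocampus in the same direction and 0 in the opposite direction. Over all 18625 probe sets, 2399 passed there in the direction of the brainstem difference and 318 in the opposite one (14.6% in all). Calls in hippocampus and cortex come from the fit of all 9 groups. In that fit 2717 passed in hippocampus, 3247 in cortex and 155 in brainstem. Dennd6b differed by 0.95 in hippocampus, Aplp1 by 0.55, Lsm1 by -0.76, Bex3 by -0.79 and Vcl by -0.77, each in the brainstem direction. Among the 14 largest differences each way, 12 of those higher and 14 of those lower had the same sign in hippocampus. F12 (-0.23) and Zbtb18 (-0.31) were the exceptions. Across the 18625 probe sets the Pearson correlation of the brainstem and hippocampus differences was 0.49, and 0.55 without phenytoin array 1. Probe sets are not independent, and whether the same rats gave both regions is not stated.

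The difference between the drugs changed size between brainstem and hippocampus at 3 probe sets (0.0161%) when tested directly, and none of the 555 was among them. That test used the fit of all 9 groups, where the brainstem difference itself passed at 155 probe sets, 146 of them among the 555. Most of the 555 did not pass there even for brainstem alone. Their absence from the region test therefore does not show equal differences in both regions. The 3 probe sets were of Rad23b, which delivers ubiquitinated proteins to the proteasome, Rhoa, a GTPase of the actin cytoskeleton, and Pafah1b1, a regulator of the dynein motor. Rad23b differed by -1.50 in hippocampus and 0.07 in brainstem, Rhoa by -1.03 and 0.07, and Pafah1b1 by -1.21 and 0.41. The limma adjusted p of the difference between regions was 0.0460 for each. The count of such probe sets was 0 without phenytoin array 1, 0 without levetiracetam arrays 1 and 2, 0 with values as deposited and 23 (17 higher, 6 lower) with arrays of the same drug and number as a block.

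In frontal cortex 142 of the 555 (25.6%) had the brainstem sign there, against 43.8% of all probe sets. There 16 passed in the same direction and 190 in the opposite direction, against 1025 and 2222 of all probe sets (17.4% in all). The difference between regions itself passed at 356 of the 555 (64.1%), against 2697 of all probe sets (14.5%). The brainstem contrast that chose the 555 also enters this test. Of the 328 probe sets lower with phenytoin in brainstem, 66 had the same sign in cortex and 165 passed there in the opposite direction. Of the 227 higher ones, 76 had the same sign in cortex and 25 passed there in the opposite direction. Cttnbp2, a cortactin-binding protein, differed by -0.57 in brainstem and 2.02 in cortex, Pdcd4, a translation inhibitor, by -0.39 and 1.90, Mtpn, an actin capping regulator, by -0.48 and 2.10, and Rapgef4, a cyclic AMP sensor, by -0.32 and 1.82. Of the 8 smallest p in the test against cortex, Ube2d2 (-0.30 and 2.08), Serinc1 (-0.24 and 1.58), Klhl2 (-0.23 and 2.41) and Slc4a10 (-0.25 and 1.75) did not pass in brainstem. Dennd6b (0.76 and -0.77) and Efemp2 (1.19 and -0.73) were higher with phenytoin in brainstem and lower with it in cortex. The Pearson correlation with cortex over all probe sets was -0.24, and -0.25 without phenytoin array 1.

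**Figure D5:**
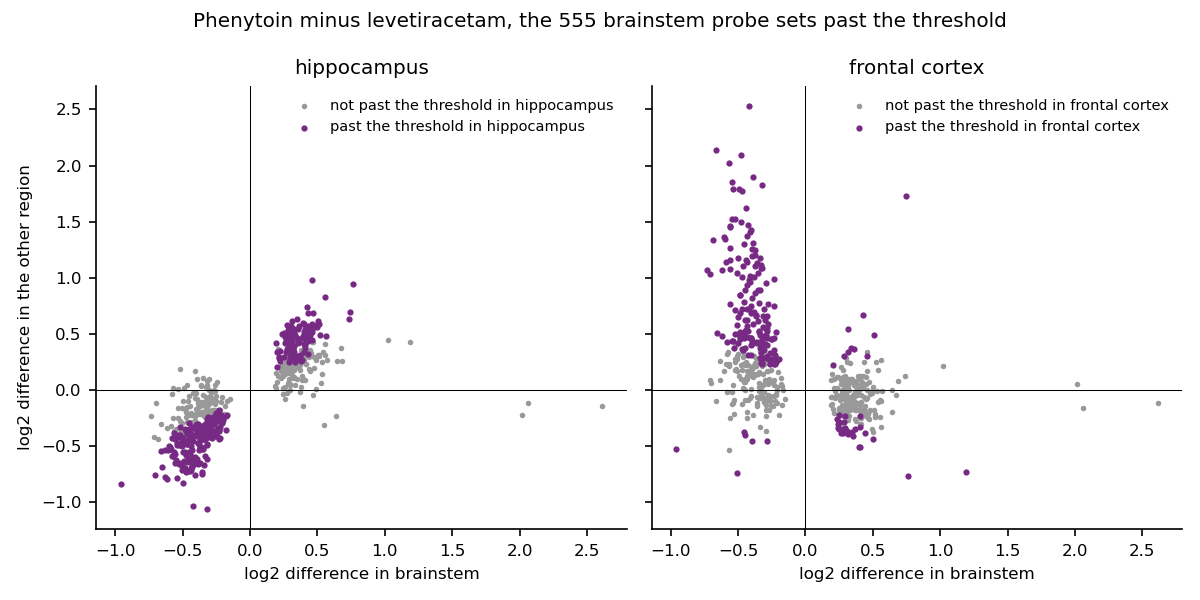
Difference between the drugs (phenytoin minus levetiracetam, log2) in hippocampus (left) and frontal cortex (right) against the brainstem difference, for the 555 probe sets past the threshold in brainstem; each point is 1 probe set, purple where it also passed in the other region. In hippocampus 524 of 555 points lie in the quadrants of equal sign, in cortex 142.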

How the data were processed

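Rat brain RNA was measured on single-colour oligonucleotide arrays. The deposited values are linear intensities that the authors had scaled: with 2% trimmed from each end the mean intensity was 150.04 to 150.06 on every complete array. The summarization method is not given in the sources used here. Per brainstem array the deposited median intensity was 48.3 to 60.6 (21 arrays), and the number of arrays limits the precision.

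Intensities below 0 were set to 0, transformed as log2(intensity + 16) and quantile-normalized over 62 arrays, fitted on the 26300 probe sets complete on all (1 hippocampus array lacks 4799). The 57 control probe sets and the dimmest 40% in brainstem were left out, leaving 18625 of 31042. Of these 31042, 20826 have a single gene symbol on the platform, 436 have more and 9780 lack one. Of them 20758 were matched by Entrez identifier to the reference gene table, with 0 symbols changed. Names come only from probe sets with 1 symbol. For lists the brightest probe set of a gene was used, otherwise that with the smallest p.

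The 21 brainstem arrays were fitted with limma 3.58.1 in R 4.3.3 (intensity-trend eBayes), contrast phenytoin minus levetiracetam, 2-sided, Benjamini-Hochberg adjusted. Regions were compared in a fit of all 9 groups. Named are the 14 largest differences each way among called genes, the 10 smallest p, up to 4 called genes per list (otherwise up to 2), the drug targets and the 8 smallest p of each region test. Further list members stand as examples chosen after their values were seen. Members, lists and rules were chosen with earlier results of these data known. Replicates were grouped by sample name, and the highest correlation between arrays of a group was 0.983. On simulated data for this contrast with 18625 probe sets, 14.9% of changes of 0.25, 77.6% of 0.5 and 97% of 1 (log2) were recovered, with 8 false calls. These rates describe the simulated data only. Whether they hold for the calls on the real arrays, whose number changed when single arrays were left out, was not tested. The alternatives covered normalization, floor, pseudocount, filter, arrays in the fit, array weights, covariates, the replicate block and left-out arrays. Those without phenytoin array 1 together with levetiracetam arrays 1 and 2, and the region tests without phenytoin array 1, were added after seeing the data.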

Additional observations from a re-analysis of the deposited data

Results flagged for a closer look

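Single arrays lay far from the rest of their group for some of the named genes: in 10 of 190 groups of 7 arrays the highest or lowest array was separated from its nearest neighbour by more than the usual critical gap, and chance alone gives about 1 group in 20. Zfp574 read 6.44 on levetiracetam array 4, the highest of its group, with the nearest other array at 5.71. Zbtb18 read 7.08 on phenytoin array 1, the highest of its group, with the nearest other array at 6.42. C18h18orf54 read 7.07 on phenytoin array 2, the highest of its group, with the nearest other array at 6.12. Cav2 read 7.82 on levetiracetam array 7, the lowest of its group, with the nearest other array at 8.13. Cdk16 read 8.14 on levetiracetam array 3, the lowest of its group, with the nearest other array at 8.32. Gng10 read 9.56 on levetiracetam array 5, the lowest of its group, with the nearest other array at 9.65. Ndufb8 read 8.14 on levetiracetam array 7, the lowest of its group, with the nearest other array at 8.43. Ndufb11 read 10.25 on levetiracetam array 6, the lowest of its group, with the nearest other array at 10.40. Mtpn read 8.72 on phenytoin array 6, the highest of its group, with the nearest other array at 8.31. Slc4a10 read 9.55 on levetiracetam array 6, the highest of its group, with the nearest other array at 9.17. Only 1 of these arrays was phenytoin array 1, which stood apart in quality. No cause was tested.

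The difference between the drugs was not the same in every region in 55 of 190 limma tests of the difference between regions, run on 95 named probe sets (uncalled list genes left out). These were 3 of 95 (3.16%) against hippocampus and 52 of 95 (54.7%) against frontal cortex, where 0.0161% and 14.5% of all probe sets passed. The named genes include the 8 with the smallest p in each of these tests, and most others were chosen by the brainstem difference that enters them, so the shares support nothing. Against hippocampus, the brainstem difference minus the hippocampus difference was 1.57 for Rad23b, 1.10 for Rhoa and 1.62 for Pafah1b1. Against frontal cortex, the brainstem difference was lower than the cortex difference in these genes (log2 values, brainstem minus cortex): Ube2d2 (-2.38), Pdcd4 (-2.29), Serinc1 (-1.83), Mtpn (-2.57), Klhl2 (-2.64), Cttnbp2 (-2.59), Slc4a10 (-1.99), Rapgef4 (-2.14), Tp53bp2 (-1.73), Larp4b (-1.97), Bex3 (-1.69), Sypl1 (-0.97), Gpr34 (-1.74), C18h18orf54 (-1.80), Cav2 (-2.03), Pnn (-0.98), Rab5a (-0.83), Tma7 (-0.70), Tmem33 (-1.003), Npas2 (-1.03), U2af2 (-0.56), Rp2 (-1.100), Tmem255a (-1.16), Cacna2d3 (-0.56), Dpysl2 (-0.54), Inka2 (-0.53), Scd2 (-0.77), Gng10 (-0.52), Notch3 (-0.90), Itga6 (-0.56), Kpna1 (-0.54), Lsm1 (-0.80), Hspa5 (-0.45), Wwc1 (-0.99), Rab21 (-0.50) and Snrpd1 (-0.56). It was higher than the cortex difference for Efemp2 (1.92), Cdk16 (0.63), Dennd6b (1.53), Cxxc5 (0.71), F12 (0.84), Phldb1 (0.89), Aplp1 (0.40), Scap (0.42), C1qc (0.73), Zbtb18 (0.79), Srebf1 (0.52), Ndufb11 (0.57), H1f10 (0.65), Src (0.61), Pdk2 (0.41) and Fzd2 (0.65).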

How the results depend on the processing

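The 555 calls became 496 with values as deposited, 550 with quantile normalization over brainstem arrays alone, 543 with a floor of 1, 547 with a pseudocount of 64, 659 with the dimmest 60% left out, 458 with the 14 drug arrays alone, 561 with robust eBayes, 527 with the beta-actin ratio as a covariate and 379 without phenytoin array 1 and levetiracetam arrays 1 and 2. Counts moved by over 1.5 times with no filter (288), with all 9 groups in 1 fit (155), with array weights (1345), with the Gapdh ratio as a covariate (833) and without levetiracetam arrays 1 and 2 (212), and the cause was not tested. Leaving out 1 array gave 221 to 903 calls, over 1.5 times fewer without phenytoin arrays 2, 3, 4 or 7 (246, 221, 259 and 288) or levetiracetam arrays 1, 3, 4 or 6 (293, 229, 293 and 274) and over 1.5 times more without phenytoin arrays 1 or 6 (903 and 895). The replicate block gave 399, of which 375 were among the 555. Same-numbered phenytoin and levetiracetam arrays did not deviate together (correlations -0.08 to 0.07), so the numbers are not read as pairs. The count of 3 between brainstem and hippocampus became 0 with values as deposited, 0 without levetiracetam arrays 1 and 2, 0 without phenytoin array 1 and 23 with arrays of the same drug and number as a block, and the 2697 against cortex became 2329 to 2979. Of 75 called probe sets among those named, 0 reversed and 25 passed under every setting. Uncalled differences near 0 changed sign: when 1 array was left out, Sv2a ranged from -0.0012 to 0.0771, Scn1a from -0.0737 to 0.0018, Scn2b from -0.0063 to 0.0635, Scn4b from -0.0795 to 0.0036, Rad23b from -0.0344 to 0.139, Rhoa from -0.018 to 0.147 and Ttll7 from -0.0909 to 0.0657. Scn2b was -0.00355 with array weights, -0.0096 with the actin covariate and -0.0245 without phenytoin array 1 and levetiracetam arrays 1 and 2, a setting in which Scn3b was 0.0028 and Rad23b -0.0363. Ttll7 was -0.0068 with the actin covariate and -0.0178 without levetiracetam arrays 1 and 2.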
